A study of Caenorhabditis elegans with 6 samples.

Results

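The dauer TGF-beta pathway of Caenorhabditis elegans was described across 7 genes, taken by symbol from a table of gene expression: daf-7, daf-1, daf-4, daf-8, daf-14, daf-3 and daf-5. The table lists 45519 genes. Of these, 16794 reached a mean of 1 FPKM (a read number divided by gene length in kilobases and by library size) and were tested, the 7 pathway genes among them. RNA came from whole larvae whose eggs had been kept in M9, a salt buffer without food, at 20 °C for 3 days, so that they stopped at the first larval stage (L1 arrest). There were 6 libraries, 3 of N2, the laboratory wild type, and 3 of linc-133(aqz 3), called the mutant here. linc-133 is a long noncoding RNA gene, and the part of it that the allele aqz 3 affects is not stated. Neither group was fed and none was sampled in the dauer stage. Whether replicates of a strain were separate cultures is not stated in the labels, so each p-value reflects spread among these 6 libraries only, and that spread may be technical.

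The pathway carries a signal of food and crowding from sensory neurons to the rest of the animal. The ligand DAF-7, made mostly by the ASI sensory neurons of the head, acts through the type I receptor DAF-1 and the type II receptor DAF-4 on the receptor-regulated Smad proteins DAF-8 and DAF-14. These hold back a complex of the Co-Smad DAF-3 and the Sno/Ski protein DAF-5. When the signal is absent, DAF-3 and DAF-5 act and favour entry into the dauer stage, a long-lived alternative larva. DAF-4 also serves a separate branch, named Sma/Mab after its mutants, in which the BMP-like ligand DBL-1 sets body size.

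The libraries held 16108063 to 18556695 reads on genes, as recovered from the FPKM values. linc-133 itself was covered by 9, 6 and 5 reads in N2 libraries, against 6, 2 and 2 in the mutant libraries. Relative to N2, its reads in the mutant were 0.515 times as many, with an exact binomial 95% interval of 0.215 to 1.15 that covers counting error only, so the strain label could not be checked with this gene. Markers of the L1 stage, lin-14, lin-28, cut-3 and cut-5, summed to between 325.0 and 457.8 FPKM in every library. Of these, cut-3 measured 112.7, 45.09 and 43.11 FPKM in N2, against 118.8, 181.1 and 116.8 FPKM in the mutant (limma adjusted p = 0.287). Its strains did not overlap, as in 20.0% of all tested genes. The means of lin-14 and lin-28 were lower in the mutant, and that of cut-5 was higher. The dauer markers col-2, col-40 and cut-1 summed to at most 1.01 FPKM and the adult yolk protein genes vit-2, vit-5 and vit-6 to at most 1.08 FPKM. Markers of neurons, body wall muscle, pharynx muscle, intestine and epidermis were present in every library. The epidermis marker elt-3 measured 33.6 FPKM in N2, against 45.6 FPKM in the mutant, and elt-1 measured 10.4 and 14.4 FPKM. Both had an unadjusted limma p under 0.05, as did 13.7% of all tested genes, and adjusted p-values of 0.262 and 0.312. lin-26, also of the epidermis, was lower, at 21.2 FPKM in N2, against 16.4 FPKM in the mutant. Of 4 ASI markers, gpa-4, unc-3 and daf-28 passed the level needed for testing and the receptor gene str-3 did not, with 0 to 5 reads a library.

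Each of the 7 pathway genes was well covered, with 492 to 5125 reads per library. In FPKM, which allows levels of different genes to be compared per length, the order of the means over the 6 libraries was daf-5 (98.8), daf-14 (59.98), daf-4 (41.1), daf-3 (35.4), daf-7 (29.9), daf-1 (29.7) and daf-8 (17.3). daf-5 lay above 92.05% of tested protein-coding genes and daf-8 above 56.6%. The 6 values of daf-5 all exceeded those of daf-14, and the 6 values of daf-1 all exceeded those of daf-8. The neighbours between them had overlapping ranges. daf-14 exceeded daf-4, and daf-4 exceeded daf-3, in 6 of 6 libraries, whereas daf-3 exceeded daf-7 in 4 and daf-7 exceeded daf-1 in 3, so that these last neighbours could not be ordered.

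The ligand gene daf-7 (gene 175237) lies on the plus strand of chromosome III from 811828 to 813773 in WBcel235, the build of all positions given here, and has 5 exons. It measured 23.6, 24.9 and 30.8 FPKM in N2 replicates 1 to 3, against 28.5, 33.4 and 37.9 FPKM in the mutant ones. The 2 lowest values were wild-type and the 2 highest were mutant, but the strains overlapped, since wild-type replicate 3 lay above mutant replicate 1. The means were 26.4 ± 3.80 FPKM in N2, against 33.3 ± 4.74 FPKM in mutant larvae (SD, n = 3 each). As the libraries are of whole animals, more or fewer ASI cells and more or less daf-7 RNA in each cannot be told apart. Of the ASI markers, gpa-4 measured 2.71 FPKM in N2, against 2.66 FPKM in the mutant, and daf-28 measured 7.13 and 8.16 FPKM. The transcription factor gene unc-3, also used in motor neurons, measured 11.9 FPKM in N2, against 8.81 FPKM in the mutant, with an unadjusted limma p under 0.05 and an adjusted p of 0.335. The part of these markers in the daf-7 values was not tested.

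The libraries of the strains overlapped in both receptor genes. daf-1 (chromosome IV, 132416 to 138084, plus strand) encodes the type I receptor kinase. It measured 25.4, 29.4 and 30.8 FPKM in the N2 libraries, against 27.6, 31.2 and 33.95 FPKM in the mutant libraries, with the strains interleaved. daf-4 (chromosome III, 5625132 to 5632504, plus strand) encodes the type II receptor kinase. It measured 38.9, 39.2 and 41.7 FPKM in N2, against 28.6, 46.4 and 52.0 FPKM in the mutant. The wild-type libraries thus lay close together, with mutant replicate 1 below them and the other 2 mutant libraries above. The 3′ end of daf-1 shares 108 exonic bases, 4.31% of its exons, with the opposite-strand collagen gene col-99. A noncoding gene on the same strand, C05D2.11, lies inside daf-4 and shares 0 exonic bases with it.

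The receptor-regulated Smads carry the signal from the receptors. daf-8 (chromosome I, 8584081 to 8587505, minus strand, 6 exons) measured 18.7, 17.9 and 17.2 FPKM in the N2 libraries, against 12.9, 14.3 and 22.4 FPKM in the mutant libraries. Mutant replicates 1 and 2 lay below all wild-type libraries and mutant replicate 3 above them. daf-14 (chromosome IV, 10250627 to 10255852, plus strand) is annotated in the table with the MH2 domain alone, the part of a Smad that binds receptors and other Smads, while daf-8 and daf-3 carry both this and the DNA-binding MH1 domain. daf-14 measured 53.9, 64.6 and 51.5 FPKM in N2, against 62.9, 62.3 and 64.7 FPKM in the mutant. The mutant libraries lay close together, and 2 of the 3 wild-type libraries lay below them. The end of daf-14 shares 111 exonic bases, 8.73% of its exons, with the opposite-strand gene F01G10.9. The library kit named in the labels does not mark the strand, so reads in these shared stretches cannot be assigned. Over all 6 libraries F01G10.9 had 651 reads and daf-14 had 8112, while col-99 had 3558 and daf-1 had 7871.

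The antagonistic end of the pathway is formed by daf-3 and daf-5. daf-3 (chromosome X, 817922 to 825475, minus strand, 9 annotated transcripts) measured 36.8, 36.2 and 37.5 FPKM in the N2 libraries, against 28.1, 30.5 and 43.2 FPKM in the mutant libraries. Its pattern was that of daf-8, with mutant replicates 1 and 2 below the wild type and mutant replicate 3 above. daf-5 (chromosome II, 14033216 to 14037721, minus strand) was the most abundant pathway gene in each library. This is the deposited span, and the Ensembl annotation used for exons extends daf-5 to 14052304. daf-5 measured 89.6, 93.6 and 109.7 FPKM in N2, against 77.0, 92.2 and 130.8 FPKM in the mutant. The mutant libraries spanned the range of the wild type on both sides. daf-5 alone made up 30.6% to 34.4% of the summed FPKM of the 7 genes in N2 libraries, against 28.99% to 33.97% in the mutant libraries.

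**Figure D1:**
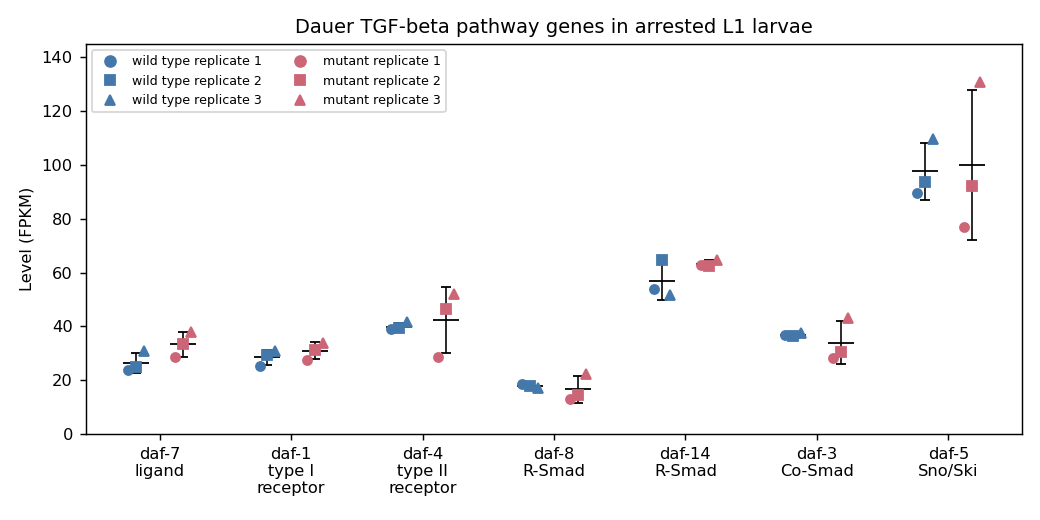
Level in FPKM of the 7 pathway genes, with 1 point per library, the mean as a horizontal bar and the SD as an error bar (n = 3 per strain). The strains overlap in each gene, and the mutant libraries of daf-4, daf-8, daf-3 and daf-5 are spread more widely than those of the wild type.

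The comparison of the strains asked whether the level of any pathway gene differed with the linc-133 allele. In limma, fitted over all 16794 genes with Benjamini-Hochberg adjustment, 0 of the 7 pathway genes passed an adjusted p of 0.05, where 0% of all tested genes did. An unadjusted limma p under 0.05 was found for 0 of the 7, against 13.7% of all tested genes (7.22% higher and 6.48% lower in the mutant). The libraries of the strains overlapped in all 7, whereas 20.0% of tested genes had libraries that did not overlap (10.5% higher and 9.54% lower in the mutant). The median log2 change of the 7 genes was 0.04, beside -0.0015 over all tested genes, with 5 changes above 0 and 2 below.

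daf-7 had the lowest p of the 7, with a log2 change of 0.32 (SE 0.162, limma adjusted p = 0.432). Its 95% interval ran from 0.955-fold to 1.64-fold. daf-14 followed with a log2 change of 0.16 and an interval of 0.903-fold to 1.39-fold (limma adjusted p = 0.64). The intervals of daf-1, 0.861-fold to 1.36-fold, and of daf-4, 0.708-fold to 1.49-fold, lay on both sides of no change. For daf-8 the log2 change was -0.15, from 0.638-fold to 1.28-fold, and for daf-3 it was -0.14, from 0.678-fold to 1.22-fold. daf-5 had a log2 change of 0.0043, from 0.705-fold to 1.43-fold. The limma adjusted p was 0.763 for daf-1, 0.952 for daf-4, 0.804 for daf-8, 0.775 for daf-3 and 0.995 for daf-5. A difference of 2-fold thus lay outside each of these intervals, while differences of up to 1.2-fold in either direction lay within those of daf-4, daf-8, daf-3 and daf-5.

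**Figure D2:**
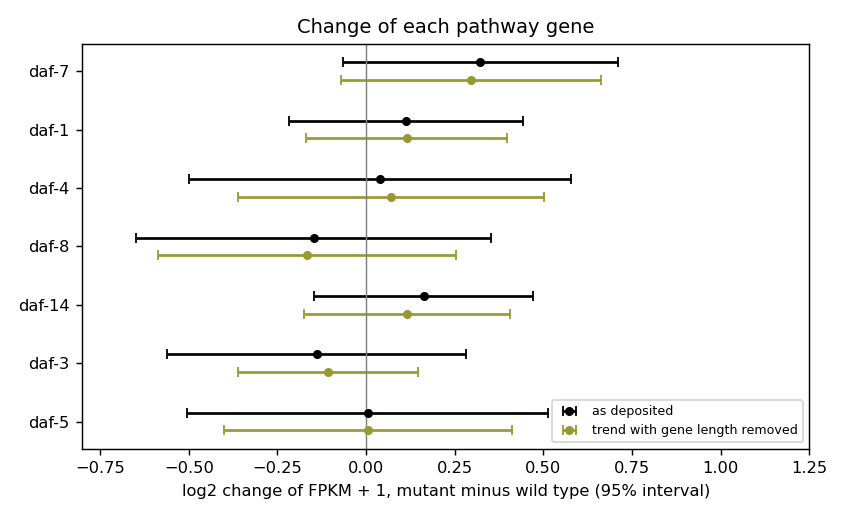
Change of each pathway gene on the log2(FPKM + 1) scale, mutant minus wild type, with limma's 95% interval (n = 3 per strain). Black points are the deposited values and olive points are values from which each library's trend with gene length was removed; all 14 intervals include 0.

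The mutant libraries differed more among themselves than the wild-type libraries did. The within-strain SD of log2(FPKM + 1) was larger in the mutant for 6 of the 7 genes, daf-14 being the exception. It was larger in the mutant for 68.3% of 14163 genes with a mean of at least 10 reads. In daf-7 and daf-1 the margin was small, 0.194 in N2 against 0.202 in the mutant and 0.141 against 0.146. As RPKM of recovered reads, without the authors' scaling, their SDs were 3.95 and 2.66 in N2, against 1.22 and 0.366 in the mutant. Those of daf-14 were then 6.03 and 6.08. The median SD of the 7 genes was 0.141 in N2, against 0.32 in the mutant, beside 0.162 and 0.255 over those 14163 genes. In daf-3 the coefficient of variation was 1.74% in N2, against 23.9% in the mutant, while counting error alone would give 2.25%. In daf-4 it was 3.78% and 28.8%, with 2.10% from counting, and in daf-8 it was 4.01% and 31.04%, with 3.93% from counting. In daf-5 it was 10.9% and 27.7%. In daf-7 it was alike in the strains, at 14.4% and 14.2%, as in daf-1, at 9.87% and 10.3%, while in daf-14 it was 12.3% and 1.98%. Counting gave 1.52% to 3.39% in these 4 genes. The wider mutant spread was thus found mainly in daf-4, daf-8, daf-3 and daf-5.

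Mutant replicate 3 was the highest of the 6 libraries in all 7 genes, compared with 23.4% of the 14163 genes, which are of all lengths. In daf-14 it stood at 64.67 FPKM, beside 64.6 FPKM in wild-type replicate 2. Mutant replicate 1 was the lowest in 4 of 7, daf-4, daf-8, daf-3 and daf-5, compared with 20.13% of genes. With each library's trend with gene length removed, mutant replicate 3 was the highest in daf-7, daf-8, daf-14 and daf-5. It was then not the highest in daf-1, daf-4 and daf-3, and the share of all genes was not computed. The sum of the 7 genes was 286.9, 305.8 and 319.2 FPKM in the N2 libraries, against 265.6, 310.3 and 385.0 FPKM in the mutant libraries. Part of this order came from the authors' scaling between libraries, which moved mutant replicate 1 down and mutant replicate 3 up. As RPKM computed from the recovered reads, without that scaling, the sums were 294.8, 303.4 and 325.1 in N2, against 296.7, 311.0 and 346.7 in the mutant, and mutant replicate 3 was the highest in 5 of the 7 genes, compared with 13.3% of genes. Mutant replicate 1 was then the lowest in 2 of 7, compared with 10.5% of genes. On that scale daf-7 measured 24.3, 24.7 and 31.3 in N2, against 31.8, 33.5 and 34.2 in the mutant, so that its strains did not overlap, as was the case for 18.6% of all genes tested on that scale. Marker sums of body wall muscle, pharynx muscle and neurons also stood apart in mutant replicate 3. Body wall muscle markers summed to 3516 to 3970 FPKM in N2, against 2827, 3496 and 5158 FPKM in the mutant, and pharynx muscle markers to 401.0 to 607.1 FPKM, against 580.8, 433.9 and 959.8 FPKM. Neuron markers summed to 809.9 to 899.7 FPKM in N2, against 839.0, 826.8 and 710.5 FPKM. Markers of a tissue did not all move together. In mutant replicate 3 snb-1 measured 412.9 FPKM, against 528.6 to 606.4 FPKM in N2, but unc-104 measured 40.09, against 25.97 to 27.37 FPKM. Of the muscle markers, unc-54 measured 1672 there, against 780.9 to 923.7 FPKM, and mlc-3 1777, against 1793 to 2057 FPKM. Epidermis markers summed to 112.5 FPKM there, within the 98.41 to 157.0 FPKM of N2. With the trend with gene length removed, snb-1 had log2 values of 8.85 and 8.86 in mutant replicates 2 and 3. For unc-104 they were 4.92 and 4.97. On that scale unc-54 was still highest in mutant replicate 3, at 10.28, beside at most 9.76 in the other libraries. The part of these markers in the pathway values was not tested.

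Gene length moved with the same libraries. Among protein-coding genes of 42 to 594 bases, the median log2 difference from the wild-type mean was 0.15, 0.24 and -0.22 in mutant replicates 1, 2 and 3, and among those of at least 3238 bases it was -0.27, -0.26 and 0.28. In the wild-type libraries these medians stayed between -0.034 and 0.023 for both classes. The 7 genes measure 1272 bases (daf-14), 1661 (daf-7), 2132 (daf-8), 2508 (daf-1), 2512 (daf-5), 3158 (daf-4) and 3177 (daf-3), and their mutant SDs of log2(FPKM + 1), in that order, were 0.0279, 0.202, 0.40, 0.146, 0.385, 0.445 and 0.32. daf-1 and daf-5, nearly equal in length, thus had mutant SDs of 0.146 and 0.385. When the trend with length was subtracted from each library, a step chosen after the data were seen, the mutant SD of log2 values was 0.135 in place of 0.32 for daf-3 and 0.0692 in place of 0.146 for daf-1. For daf-4, daf-8 and daf-5 it was 0.344, 0.33 and 0.273, in place of 0.445, 0.40 and 0.385. For daf-7 it was 0.192 in place of 0.202, and for daf-14 it was larger, 0.0794 in place of 0.0279. The N2 SDs of these length-adjusted values were 0.2055 for daf-7 and 0.166 for daf-1, above the mutant ones. After this step 0 of 7 genes had an unadjusted limma p under 0.05, beside 15.3% of all tested genes, 0 of 7 passed an adjusted p of 0.05, beside 0.00595% of all tested genes, and the log2 change of daf-7 was 0.30 (limma adjusted p = 0.408).

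**Figure D3:**
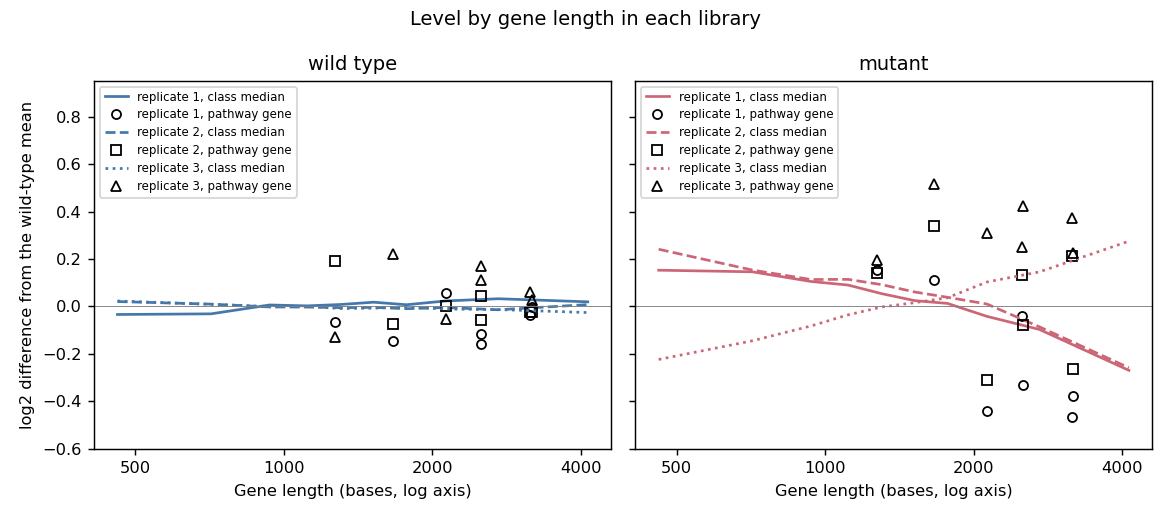
Log2 difference from the wild-type mean against gene length in bases (log axis) for each library, wild type on the left and mutant on the right. Lines are medians of 10 length classes of protein-coding genes and open symbols are the 7 pathway genes; mutant replicates 1 and 2 fall from short to long genes, from 0.15 and 0.24 to -0.27 and -0.26, and mutant replicate 3 climbs from -0.22 to 0.28.

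Which genes came nearest to a difference changed when single libraries were left out. Without mutant replicate 3, daf-8 had a log2 change of -0.38 (limma adjusted p = 0.215) and daf-3 of -0.32 (limma adjusted p = 0.219), and in these 2 of 7 genes the libraries no longer overlapped, beside 35.6% of all genes tested in that fit. The same 2 of 7 had an unadjusted limma p under 0.05, beside 17.3% of all genes tested in that fit. Without mutant replicate 1, daf-7 had a log2 change of 0.43 (limma adjusted p = 0.28), and the strains were separate in daf-7, daf-1 and daf-4, beside 34.9% of all genes tested. In that fit daf-7 was the 1 pathway gene with an unadjusted p under 0.05, beside 16.7% of all genes tested. The daf-8 and daf-3 changes were then -0.00056 and -0.02, beside -0.15 and -0.14 with all 6 libraries. Without mutant replicate 2 they were -0.068 and -0.076, so that their size depended on each of the mutant libraries. Without wild-type replicate 2 the strains were separate in daf-14, beside 25.1% of all genes tested, and without wild-type replicate 3 in daf-7, beside 25.9%. Without wild-type replicate 1 and without mutant replicate 2 they were separate in 0 of 7, beside 32.9% and 26.9%. No pathway gene passed an adjusted p of 0.05 in limma without any 1 of the 6 libraries.

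The balance of the pathway was compared through ratios of 2 pathway genes within a library, for all 21 pairs. Such ratios do not depend on the scaling between libraries, but they do carry the trend with gene length. The Co-Smad to ligand ratio, daf-3 over daf-7, was 1.555, 1.46 and 1.22 in N2 libraries, against 0.988, 0.912 and 1.14 in the mutant libraries. The daf-5 to daf-7 ratio was 3.79, 3.76 and 3.57 in N2, against 2.705, 2.755 and 3.45 in the mutant. The daf-1 to daf-7 ratio was 1.07, 1.18 and 1.001 in N2, against 0.969, 0.933 and 0.895 in the mutant. In these 3 of 21 pairs, all with daf-7, every mutant library lay below every wild-type library, whereas the strains were separate in 22.1% of all pairs of 14163 genes. Each had an exact two-sided permutation p of 0.1 on differences of log2(FPKM + 1), the smallest that 3 libraries against 3 allow. The 3 ratios share the daf-7 values and are not independent of each other. With the trend with length removed, daf-3 and daf-5 over daf-7 still separated the strains, daf-1 over daf-7 did not, and daf-8 over daf-7 did, which again made 3 of 21, beside 24.3% of all pairs. Without wild-type replicate 3, mutant replicate 1 or mutant replicate 3 the separate pairs numbered 9, 5 and 9 of 21, beside 28.3%, 39.0% and 38.2% of all pairs.

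The other ratios overlapped between the strains. The type II to type I receptor ratio, daf-4 over daf-1, was 1.41 ± 0.11 in N2, against 1.35 ± 0.273 in mutant larvae (SD, n = 3 each). The ratio of the Smad genes, daf-14 over daf-8, was 3.16 ± 0.385 in N2, against 4.03 ± 1.03 in the mutant, with mutant replicates 1 and 2 at 4.86 and 4.36 and mutant replicate 3 at 2.88. The ratio of the partners at the end of the pathway, daf-5 over daf-3, was 2.65 ± 0.25 and 2.93 ± 0.166. daf-4 and daf-3 are nearly equal in length, and daf-3 over daf-4 was 0.945, 0.924 and 0.901 in N2 libraries, against 0.982, 0.657 and 0.831 in the mutant libraries.

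**Figure D4:**
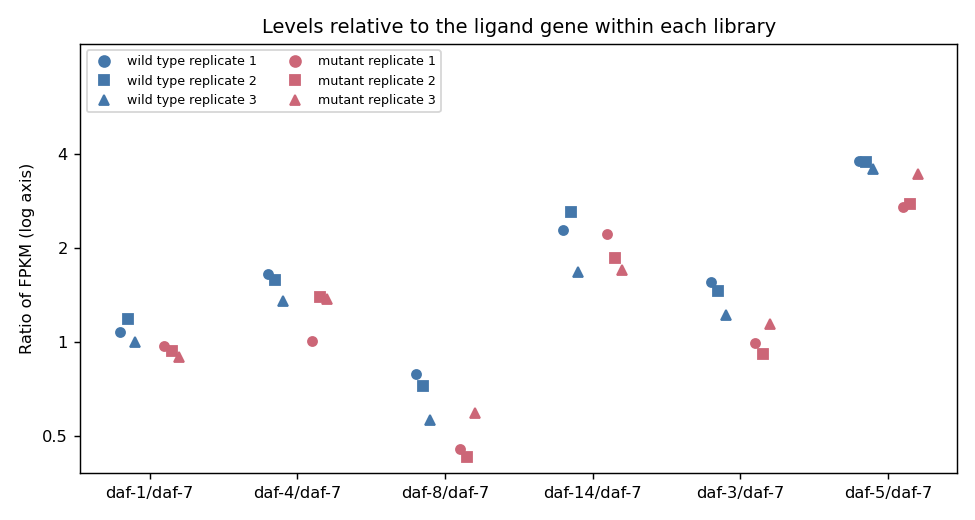
Ratio of the FPKM of each pathway gene to that of daf-7 in the same library (log axis), with 1 point per library. The mutant points lie below all wild-type points for daf-1, daf-3 and daf-5, and the strains overlap for daf-4, daf-8 and daf-14.

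Genes around the pathway were described from 8 lists holding 67 further genes, of which 64 were tested. Of these, 0 passed an adjusted p of 0.05 in limma. An unadjusted limma p under 0.05 was found for 8 of 64 (12.5%), 3 higher and 5 lower in the mutant, a share near the 13.7% of all tested genes. Without mutant replicate 3 the count was 15, beside 17.3% of all genes tested in that fit. Without wild-type replicates 1, 2 and 3 it was 4, 5 and 4, beside 13.2%, 8.07% and 8.37%, and without mutant replicate 2 it was 4, beside 9.76%.

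Genes that act on daf-7 in the sensory neurons showed no such p in 11 of 11 tested, with a median log2 change of -0.04. The most abundant was cmk-1, a calcium/calmodulin-dependent kinase gene, with 38.9 ± 3.29 FPKM in N2, against 33.8 ± 3.87 FPKM in mutant larvae (SD, n = 3 each). Among 6 genes of peptide processing and release, the proprotein convertase gene egl-3 was the most abundant, with 335.4 ± 38.3 FPKM in N2, against 360.0 ± 111.6 FPKM in the mutant. kpc-1, a furin-like convertase gene, was the one with an unadjusted p under 0.05. It measured 52.8, 57.6 and 59.0 FPKM in N2, against 65.4, 81.6 and 127.1 FPKM in the mutant (limma adjusted p = 0.334).

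The Sma/Mab branch, which shares the receptor gene daf-4, held 5 of the 8 genes with such a p among its 16 tested members, 2 higher and 3 lower, where 13.7% of all tested genes had one, and its median log2 change was 0.02. The ligand gene dbl-1 measured 15.9, 19.8 and 20.3 FPKM in the N2 libraries, against 22.5, 32.6 and 33.0 FPKM in the mutant libraries (limma adjusted p = 0.26). The Co-Smad gene sma-4 measured 27.4, 30.97 and 33.3 FPKM in N2, against 37.5, 48.8 and 51.1 FPKM in the mutant (limma adjusted p = 0.24). In both genes the lowest mutant value exceeded the highest wild-type one, an order also seen in 10.5% of all tested genes. They were the only 2 of the 16 tested members with this order.

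The receptor-regulated Smad genes of that branch lay on the other side. sma-2 measured 27.9 ± 3.55 FPKM in N2, against 18.2 ± 4.57 FPKM in the mutant, and sma-3 measured 24.5 ± 0.813 and 19.5 ± 1.80 FPKM (SD, n = 3 each). Their limma adjusted p-values were 0.277 and 0.33. lon-1, a secreted protein gene that the DBL-1 signal is known to repress, measured 11.9, 18.9 and 24.2 FPKM in N2, against 9.01, 6.43 and 5.95 FPKM in the mutant (limma adjusted p = 0.18). Its log2 change of -1.21 was the largest in size among the tested related genes. In sma-2, sma-3 and lon-1 every mutant value lay below every wild-type one. Such a pattern was found in 4 of the 16 tested members, beside 9.54% of all tested genes. The most abundant member, the zinc finger gene sma-9, measured 61.6 ± 1.99 FPKM in N2, against 70.3 ± 42.3 FPKM in the mutant, with 118.7 FPKM in mutant replicate 3. The type I receptor gene of that branch, sma-6, measured 22.1 ± 1.98 and 19.8 ± 3.75 FPKM. None of these genes passed over all genes, and whether the branches differed from each other was not tested.

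Of the other TGF-beta genes, the ligand gene unc-129 was the most abundant, with 49.3 ± 4.50 FPKM in N2, against 54.6 ± 2.93 FPKM in the mutant. The ligand gene tig-2 measured 27.7 ± 4.32 and 32.6 ± 6.55 FPKM, tag-68, which encodes a Smad-like protein, measured 15.1 and 15.9 FPKM, and tig-3 had 2 to 9 reads a library and was not tested. The 7 modifiers of the dauer branch had a median log2 change of 0.16 and no unadjusted p under 0.05. The receptor-binding gene bra-2 was the most abundant, with 37.8 ± 5.23 FPKM in N2, against 46.8 ± 12.95 FPKM in the mutant, and bra-1, whose product binds DAF-1, measured 32.7 ± 2.39 and 41.05 ± 5.65 FPKM.

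Outputs reported for DAF-3 and the dauer branch were likewise without such a p in 10 of 10 tested genes, with a median log2 change of 0.21. The pharyngeal myosin gene myo-2 was the most abundant, with 150.7, 191.9 and 225.4 FPKM in N2, against 179.2, 146.5 and 402.2 FPKM in the mutant. myo-1, another pharyngeal myosin gene, was also highest in mutant replicate 3, at 257.4 FPKM against 102.4 to 165.0 FPKM elsewhere. The metabotropic glutamate receptor genes mgl-1 and mgl-3 measured 4.89 and 5.20 FPKM in N2, against 5.13 and 6.77 FPKM in the mutant. Among the insulin-like peptide genes of that list, ins-7 had 1 to 16 reads a library and a log2 change of -0.91 (limma adjusted p = 0.384), and ins-6 had a log2 change of 0.37 (adjusted p = 0.46).

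The parallel arms that control dauer entry were also compared. In the steroid hormone arm 0 of 5 tested genes had an unadjusted limma p under 0.05, and the co-repressor gene din-1 was the most abundant, with 35.03 ± 1.84 FPKM in N2, against 27.4 ± 14.4 FPKM in the mutant. The nuclear receptor gene daf-12 measured 24.2 ± 2.71 and 24.4 ± 11.3 FPKM. In the insulin arm 2 of 7 genes had such a p, both lower in the mutant, beside 13.7% of all tested genes (6.48% lower). The kinase gene akt-1, the most abundant of them, measured 126.5, 123.3 and 122.8 FPKM in the N2 libraries, against 83.2, 86.9 and 92.4 FPKM in the mutant libraries (limma adjusted p = 0.18). pdk-1, which encodes the kinase that activates AKT-1, measured 29.8 ± 1.24 and 21.6 ± 4.59 FPKM (limma adjusted p = 0.318).

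**Figure D5:**
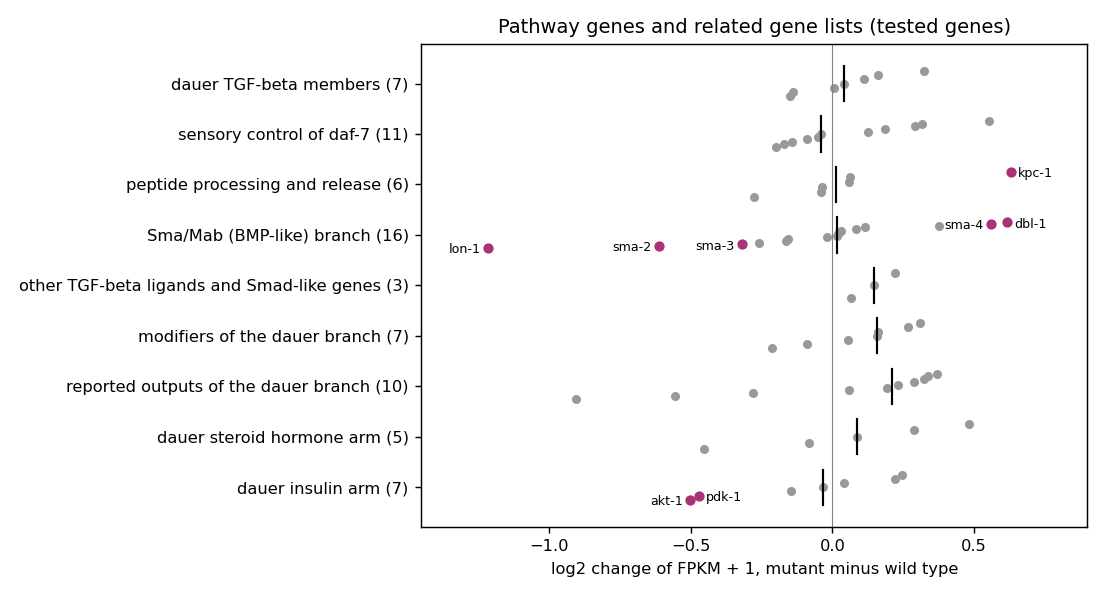
Log2 change of FPKM + 1, mutant minus wild type, for the 7 pathway genes and the tested genes of 8 related lists, with the number tested in parentheses. Each point is a gene, the vertical bar is the list's median and purple points have an unadjusted limma p under 0.05; the 7 pathway genes lie between -0.15 and 0.32 and none is purple.

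Genes with the most similar pattern to each pathway gene were sought among 13725 other protein-coding genes. Likeness was the root mean square difference of log2(FPKM + 1) over the 6 libraries, after each gene was centred on its own mean. The nearest to daf-7 was C44H4.8, with a difference of 0.0294, and then R09H10.1 with 0.0453. For daf-1 they were Y40C5A.4 and F58F9.1, for daf-4 K11D2.4 and the potassium channel gene twk-18, and for daf-14 F07F6.8 and iglr-1. For daf-8 they were Y55B1AR.2 and F46F11.1, for daf-3 the tyrosine kinase gene abl-1 and the insulin arm gene akt-2, and for daf-5 the GABA-B receptor gene gbb-2 and the protein kinase C gene tpa-1. The closest within the pathway were daf-8 and daf-3, with a difference of 0.0622, which made daf-3 the gene at rank 22 from daf-8. The nearest pathway gene to daf-7 was daf-1, at rank 165 with 0.128.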

How the data were processed

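FPKM values deposited by the authors, per the file headers, were used for 45519 genes in 6 libraries. WBcel235, StringTie, STAR 2.5.2b and Bowtie 0.12.2 appear, with no role given, in the submitters' processing notes. Neither the annotation release nor the strand setting is stated there. Gene lengths and positions deposited beside the values are other columns of the same table. Multiplying FPKM by gene length and by 1 constant per library, found from the values, gave whole reads within 0.01 for 100% of values above 0. Exons and overlaps came from the Ensembl release 115 annotation of WBcel235.

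Genes averaging 1 FPKM or more were tested on log2(FPKM + 1) with limma 3.58.1 (R 4.3.3), using trend and robust moderation, the strain as the only term, all 6 libraries and Benjamini-Hochberg adjustment over all 16794 genes. A change on this scale understates that of low genes. The fit was tested on simulated data. Alternatives changed the pseudocount, filter, scaling, moderation, unit (limma's voom on recovered reads), gene set and libraries. Removal of each library's trend with gene length was added after the data were seen.

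The pathway genes and lists were chosen with earlier results of these data known, so no p adjusted over a list is given and no set test was run. Named genes were the 7 pathway genes, linc-133, the most abundant gene of each related list and those with an unadjusted p under 0.05, the 2 genes nearest in pattern, and genes overlapping a pathway gene. sma-6, tig-2, tag-68, bra-1, mgl-1, mgl-3, ins-6, ins-7, myo-1, daf-12 and the markers were named after their values were seen. Promoter and protein sequences were not used here.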

Additional observations from a re-analysis of the deposited data

How the results depend on the processing

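The count of 0 pathway genes past an adjusted p of 0.05 held in every alternative run. The count of all genes was 1 with a filter at 10 reads per library, 1 among protein-coding genes, 1 with the trend with gene length removed, 23 with neither trend nor robust moderation, 3 with voom and 446 (2.66% of tested genes) in voom with quality weights, where lon-1 was the 1 related gene to pass (log2 change -1.42, adjusted p = 0.0393). Without 1 library, pathway genes with an unadjusted p under 0.05 numbered 0 to 2, beside 8.07% to 17.3% of all genes. Those with separate strains then numbered 0 to 3, beside 25.1% to 35.6% of all genes. Without the authors' scaling 1 was separate, beside 18.6%. Pairs of pathway genes with separate ratios numbered 3 to 9 of 21 without 1 library. The share of all pairs was 28.3% to 39.0% in those fits where it was computed. The related genes with an unadjusted p under 0.05 numbered 4 to 15 of 64 without 1 library, beside 8.07% to 17.3% of all genes. They numbered 13 in voom with quality weights, where the share of all genes was not computed, so that count cannot be judged. The log2 change of daf-5 was -0.014 with quantile scaling, -0.0100 without the authors' scaling and -0.052 in voom with quality weights, and ran from -0.21 to 0.17 without 1 library. That of daf-4 ran from -0.13 to 0.29 without 1 library. The causes were not tested. daf-7, daf-1 and daf-14 stayed above 0, and daf-8 and daf-3 below 0, in all 19 alternatives, although daf-8 was at -0.00056 and daf-3 at -0.02 without mutant replicate 1. Correlations of the deviations of same-numbered libraries across 14163 genes were -0.0082, -0.0932 and -0.0101, and those of differently numbered ones ran from -0.0454 to 0.0756. Whether same-numbered libraries were handled together cannot be told from these values. With the replicate block as a term in limma, the count of all genes past the threshold stayed at 0. The count of related genes with an unadjusted p under 0.05 was then 6, and the share of all genes was not computed. For daf-7 the unadjusted limma p was 0.0558 with the block, in place of 0.0901. The 7 pathway genes had at least 492 reads a library. Their 95% intervals reached down to 0.638-fold and up to 1.64-fold.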
